A study of Homo sapiens with 3 samples.

Results

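ABCA1 and 7 further genes of cholesterol efflux under the liver X receptors (LXR) were examined in 1205Lu cells, an established human melanoma line grown from a lung metastasis of WM793 cells in mice. The set holds the receptors NR1H2 and NR1H3, the transporters ABCA1 and ABCG1, the lipoprotein genes APOE, APOC1 and PLTP, and the ubiquitin ligase gene MYLIP. Members were found by gene symbol and comprised 13 probes of 8 genes, out of 30990 gene names on the arrays. The set was chosen by measured values of these same arrays, ABCA1 for its loss of signal in the melanoma bodies, so the differences below are descriptions and carry no test.

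The study followed 1205Lu cells as they passed from monolayer to 3D bodies and back, on 3 one-colour arrays, with 1 array for each population. The original monolayer (OM) was kept for 14 days in standard RPMI-1640 medium with 10% fetal calf serum (FCS). The melanoma bodies (MB) formed over 14 days in human embryonic stem cell (hESC) medium, which is DMEM F-12 with 20% knockout (KO) serum replacement and no FCS, and were collected by physical detachment. The new monolayer (NM) was seeded from bodies grown as above (14 days in hESC medium), returned to standard medium for 10 days, after which residual bodies were removed. All 3 populations share the same line, with no added agent or genetic change named in the labels. There are no replicates, so precision is set by how few arrays there are. Body formation, the change of medium and serum, the array and the culture cannot be told apart.

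LXRα (NR1H3) and LXRβ (NR1H2) are nuclear receptors that bind oxysterols and act as heterodimers with the retinoid X receptors. When sterols accumulate they raise transcription of ABCA1, which loads cholesterol and phospholipid onto lipid-poor apolipoproteins, and of ABCG1, which passes cholesterol on to formed particles. They also raise APOE and APOC1 at a shared cluster, PLTP, which moves phospholipid between lipoproteins, and MYLIP (IDOL), which marks lipoprotein receptors for degradation.

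Because the 3 ABCA1 probes did not behave alike, the first 30 of the 60 bases of each are shown, 5′ to 3′, as printed on the array. The first lies at chr9:104623259-104623318, the second at chr9:104625928-104625987 and the third at chr9:104697744-104697803, all on the minus strand of hg17. The first and second were designed to a RefSeq transcript of ABCA1 and the third, which starts 71816 bases upstream of the second, to a cDNA clone. Which exon, intron or UTR each lies in was not analysed here, since no hg17 annotation was used.
ABCA1 probe 1: ccaaagagccatgtgtcatgtaatactgaa
ABCA1 probe 2: caaaattccattacaggggcagtgcctttg
ABCA1 probe 3: gtgcttctgtaccaaaagtggaatttcacg

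The ABCA1 promoter is shown because it holds the letters of an LXR response element, a direct repeat with a spacer of 4 bases (DR4). The stretch below is the 120 bases before the RefSeq start at chr9:104928156-104928275 on the minus strand of GRCh38.p14, and capitals mark the DR4 match.
ABCA1 promoter: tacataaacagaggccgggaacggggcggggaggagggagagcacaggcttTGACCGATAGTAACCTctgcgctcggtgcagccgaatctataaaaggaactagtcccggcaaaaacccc
The search used AGGTNANNNNNGGTCA on both strands of the 250 bases before each start, letters set with the known ABCA1 element in mind. The match lies on the opposite strand, 69 to 54 bases before the start, and 24 of 27305 promoters (0.0879%) hold these letters. Among the 7 members with a promoter (all but ABCG1) only ABCA1 held them. The E box CACGTG and the TATA letters TATAAA were also found among the members only in ABCA1, against 6.49% and 11.1% of all promoters, while the GC box GGGCGG was found in 6 of the 7 against 42.3%. A match is a description of the letters and says nothing about binding in these cells.

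ABCA1 was the member with the largest difference between the populations, and its signal was present in both monolayers and at background in the bodies. Signals are given in arbitrary units (a.u.) before scaling, with the error the scanner software assigns to the spot. Probe 1 gave 1438 ± 144 a.u. in OM, 19.5 ± 4.91 in MB and 1841 ± 184 in NM. The MB spot was not well above its local background by the software's own flag, and its signal lay at the lowest level at which any probe of that array was (19.4 a.u.).

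Each array was scaled to the mean of GAPDH, ACTB and HSP90AA1. The ABCA1 probe 1 signal in the bodies was then 72.2-fold below OM and 105-fold below NM. These folds use the MB signal itself, which cannot be told from background and carries an error of ± 4.91 a.u. They are therefore neither measured folds nor strict lower bounds. With normexp background correction the log2 ratios were -4.06 and -4.59 in place of -6.17 and -6.72. Between the monolayers the same probe was 1.46-fold higher in NM than in OM (log2 0.55), and the spread between replicate spots of one probe at this signal was 0.03 on the log2 scale.

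The other ABCA1 probes were dim. Probe 2 gave 43.6 ± 6.49 a.u. in OM, 10.2 ± 4.53 in MB and 42.0 ± 7.86 in NM. It too was well above background in the monolayers only, and MB lay below OM by at least 2.20-fold and below NM by at least 2.41-fold. Its NM and OM values differed by 0.13 on the log2 scale, less than the replicate-spot spread of 0.17 at that signal.

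Probe 3, the cDNA probe, gave 40.4 ± 6.23 a.u. in OM, 4.31 ± 4.29 in MB and 6.56 ± 6.52 in NM. It was above background in OM alone, at least 2.04-fold higher than MB and at least 1.22-fold higher than NM. All 3 probes were thus above background in OM and at background in MB, while in NM probes 1 and 2 were above background and probe 3 was not, so that its MB and NM signals have no order. When the log2 ratios of the 3 probes were averaged, ABCA1 in NM over OM turned from 0.55 to -0.59. That turn rests on probe 3, whose NM signal of 6.56 a.u. was at background, so the averaged value is not a measured difference.

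The spots around ABCA1 probe 1 were read on the same arrays. Of the 24 within 2 positions of it, 17 were well above background on both MB and OM, and their median log2 ratio of MB over OM was 0.19 (range -0.52 to 2.73). No member spot was saturated, and the 2 member spots the software marked as outliers both belonged to APOE.

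**Figure D1:**
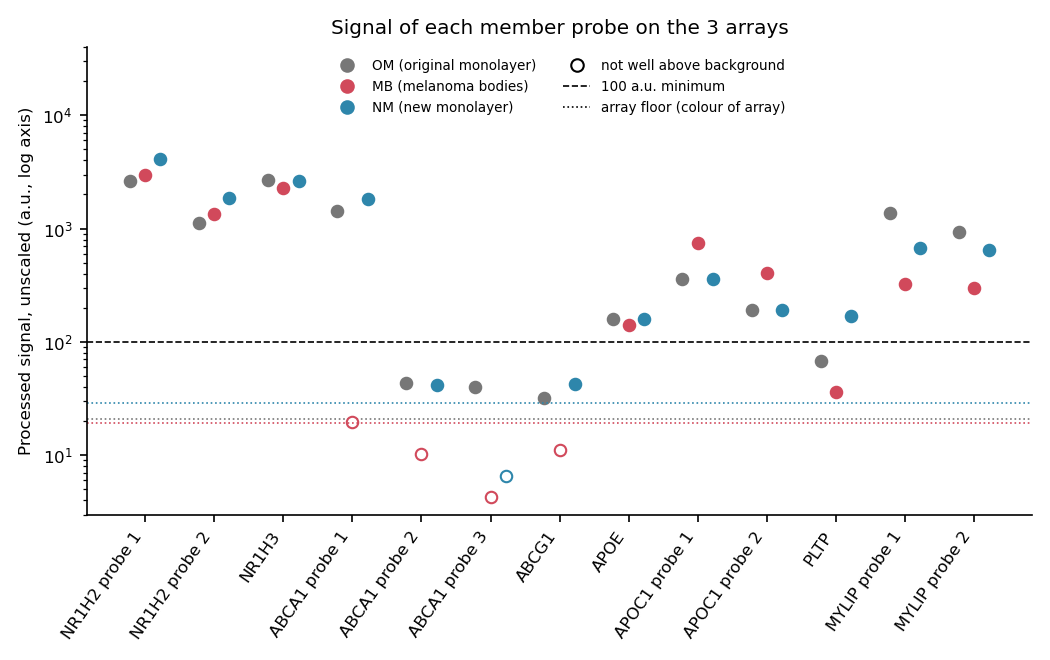
Processed signal (a.u., log axis, unscaled) of each of the 13 member probes on the OM, MB and NM arrays, 1 point per array, with APOE the mean of its spots. Hollow points were not well above background, dotted lines are each array's lowest signal well above background and the dashed line is the 100 a.u. minimum. ABCA1 probe 1 is at 1438 and 1841 a.u. in the monolayers and 19.5 in MB, while both LXR genes stay above 1000 on every array.

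The LXR genes themselves were expressed in all 3 populations. NR1H2 probe 1 gave 2634 a.u. in OM, 2942 in MB and 4141 in NM, and its probe 2, which starts 3564 bases away, gave 1110, 1355 and 1851 in the same order. Both probes were highest in NM, with MB over NM at -0.65 and -0.61 on the log2 scale. MB over OM was 0.19 and 0.32 in scaled signals, above the replicate-spot spread. Before scaling, the software's errors gave 2634 ± 263 and 2942 ± 294 a.u. for probe 1 in OM and MB. For probe 2 they gave 1110 ± 111 and 1355 ± 136. The unscaled ranges of probe 1 overlap, and those of probe 2 only just meet. Scaling raised the MB signals to 3010 and 1386 a.u., so no overlap is read for the scaled signals of probe 2. The MB over OM ratio of probe 1 also changed sign (-0.09) when the arrays were scaled on spike-in probes.

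NR1H3 was nearly level, at 2704 a.u. in OM, 2298 in MB and 2648 in NM. On the log2 scale MB lay at -0.20 against OM and at -0.36 against NM. Neither receptor reached a 2-fold difference in any comparison. In MB, where the ABCA1 signal was at background, the brightest probes of the LXR genes gave 2942 and 2298 a.u. These are RNA signals of different probes, and any link between receptor and ABCA1 was not tested.

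ABCG1 was dim throughout. Its single probe gave 31.7 ± 6.02 a.u. in OM, 11.1 ± 4.77 in MB and 42.8 ± 8.23 in NM. It resembled ABCA1 probe 1 in being well above background in both monolayers and not in MB, and the bodies were below OM by at least 1.60-fold and below NM by at least 2.46-fold. With no array above 100 a.u., ABCG1 did not enter the counts of genes that differed.

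The lipoprotein genes did not move as one. APOE, an apolipoprotein that lipoprotein receptors bind, was printed in 10 spots. It gave 160 ± 14.1 a.u. in OM (SD over 9 spots used), 140 ± 8.64 in MB (9 spots) and 158 ± 7.997 in NM (10 spots). Before scaling, the spots of the 3 arrays overlapped, spanning 145 to 188 in OM, 128 to 157 in MB and 149 to 174 in NM. These spans include the outlier spots. After scaling the means were 160, 143 and 180 a.u. in OM, MB and NM, and the unscaled overlap does not carry over to them. In scaled signals MB stood at -0.16 relative to OM and -0.33 relative to NM on the log2 scale.

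APOC1, whose start lies next to that of APOE on chromosome 19, was higher in the bodies. Probe 1 gave 358 ± 36.1 a.u. in OM, 745 ± 74.7 in MB and 359 ± 36.5 in NM. Probe 2 gave 193, 405 and 191. The 2 monolayers were alike and MB stood above both, 2.13-fold over OM and 1.86-fold over NM by probe 1, and 2.15-fold and 1.90-fold by probe 2. The log2 ratio of MB over OM, 1.09, was under the 2-fold line in 5 of the 16 alternative ways of processing and lowest with spike-in scaling (0.80). The probes are not independent measurements, since they share 50 of 60 bases (capitals mark the shared part of the first 30 bases of each). In hg17 probe 1 starts at chr19:50111419 and ends at 50114325, spanning an intron, and probe 2 lies at chr19:50114276-50114335.
APOC1 probe 1: tgcgggagtgGTTTTCAGAGACATTTCAGA
APOC1 probe 2: GTTTTCAGAGACATTTCAGAaagtgaagga

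PLTP was the gene of the set with the largest difference between the monolayers, taking each gene by its brightest probe. Its probe gave 67.3 ± 8.41 a.u. in OM, 36.5 ± 5.89 in MB and 169 ± 18.3 in NM, well above background on each. NM was therefore highest and MB lowest, with MB 5.17-fold below NM, NM 2.87-fold above OM, and MB 1.80-fold below OM at signals under 100 a.u. With normexp background correction MB over NM went from -2.37 to -1.34 on the log2 scale, no longer past 5-fold, and NM over OM from 1.52 to 0.99.

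MYLIP was lower in MB by both of its probes, which start 12473 bases apart. Probe 1 gave 1372 ± 137 a.u. in OM, 326 ± 33.0 in MB and 670 ± 67.5 in NM. Probe 2 gave 933 ± 93.5, 301 ± 30.4 and 642 ± 64.6. MB was 4.11-fold and 3.04-fold below OM and 2.29-fold and 2.38-fold below NM. MYLIP in NM was still below OM, as ABCA1 probes 1 and 2 were not, by 0.84 on the log2 scale with probe 1 and 0.35 with probe 2.

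The members were then read against all genes. A gene was represented by its brightest probe and counted when the brighter array of the pair was above 100 a.u. unscaled. For MB over OM, 6 members could be counted, and 2 of them were 2-fold or more lower (ABCA1 and MYLIP), against 4.24% of the 17826 genes counted. ABCA1 alone was 5-fold lower, against 0.69%. APOC1 was 2-fold higher, against 6.76%, and no member was 5-fold higher, against 1.04%. The set was picked on this contrast, so nothing is read from these counts.

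For MB over NM, 7 members could be counted. ABCA1, PLTP and MYLIP were 2-fold lower, where 10.4% of 17784 genes were, and ABCA1 and PLTP were 5-fold lower, where 1.67% were. No member was 2-fold higher (13.7% of genes) or 5-fold higher (2.88%). For NM over OM, only PLTP was 2-fold higher (4.36% of 17565 genes) and no member was 2-fold lower (5.97%), 5-fold higher (0.763%) or 5-fold lower (1.01%).

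Over the 8 members the median was -0.53 (log2) against OM and -0.92 against NM for the bodies, and 0.37 for NM over OM. Over all genes counted the medians were 0.09, 0.04 and 0.08. The member medians include ABCG1, which was too dim to be counted, and for MB over OM also PLTP. Member and all-gene medians thus rest on unlike signal limits, so nothing is read from the gap between them. MB was the lowest of the 3 arrays for ABCA1, ABCG1, APOE, NR1H3, PLTP and MYLIP, and the highest for APOC1 alone. For APOE and NR1H3 that order rests on small log2 ratios of MB over OM, -0.16 and -0.20. ABCG1 in MB was at background, and its ratio went from -1.48 to -0.34 with no background subtraction. No shared decrease is read from this order. The 3 comparisons share arrays and are not independent of each other. The direction of all-gene calls depended on the scaling: 61.5% of the 2-fold calls of MB over OM were higher in MB, against 42.7% with 75th-percentile scaling, 49.0% with quantile normalization and 33.5% with spike-in scaling.

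The same share of 2-fold calls that were higher was 57.0% for MB over NM, against 68.6% unscaled and 46.2% with spike-in scaling, and 42.2% for NM over OM, against 26.6% and 30.1%. Of the 5-fold calls, 60.2% were higher in MB than OM (46.1% with spike-in scaling), 63.3% in MB than NM (47.1% with normexp correction and 49.8% with no background subtraction) and 43.1% in NM than OM (76.5% and 75.6%, and 57.8% with dim signals raised to the array floor).

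**Figure D2:**
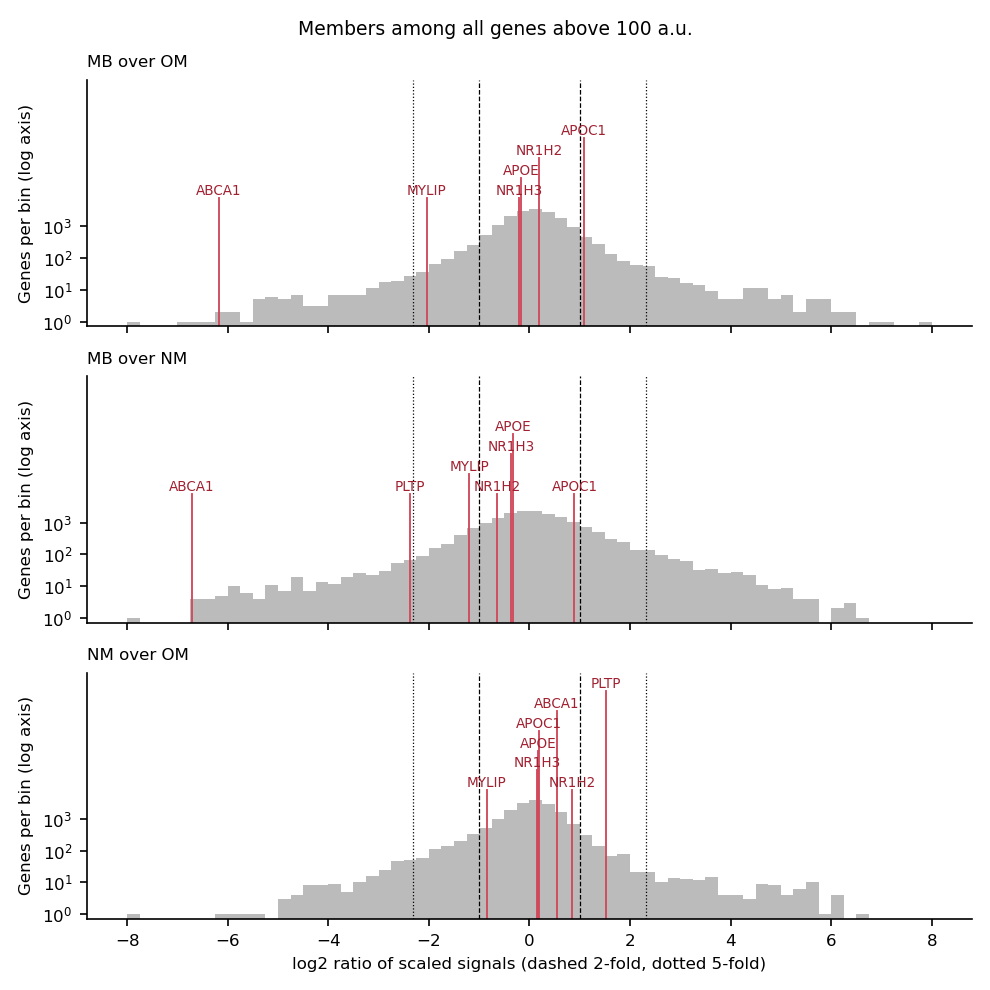
Number of genes (log axis) by log2 ratio of scaled signals, in bins of 0.25, for genes with the brighter array above 100 a.u., with members marked by red lines; values beyond the axis are held in the end bins. ABCA1 stands at -6.17 in the top panel and -6.72 in the middle, values that rest on a background-level MB signal, while for NM over OM every member shown but PLTP lies between the dashed 2-fold lines.

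Other genes of the pathway were described from 7 lists that together held 61 genes besides the members. Against OM, 41 of them could be counted, and the bodies had 7 higher and 7 lower by 2-fold, where 6.76% and 4.24% of all genes were. Against NM 8 were higher and 7 lower of 41, where 13.7% and 10.4% of all genes were. NM over OM had 3 higher and 1 lower of 39, where the shares were 4.36% and 5.97%. Lower in MB than in both monolayers were ABCG2, ABCG4, LPL, NCEH1, SREBF1 and VLDLR, and higher than in both were APOD, CYP7B1, NCOA1, RXRG and STARD4.

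Among the 9 partners and coregulators of LXR, 2 were 2-fold higher in MB than in OM and none lower, with a median log2 ratio of 0.39. RXRG, a retinoid X receptor, gave 5.77 a.u. in OM and 11.4 in NM, both at background, and 233 in MB, at least 11.4-fold above OM. The coactivator gene NCOA1 gave 1414, 2880 and 1239 a.u. in OM, MB and NM. RXRA, the more widely expressed partner, had probes that went opposite ways, the brighter at 3201, 6247 and 2103 a.u. and the other at 1224, 675 and 1717. The corepressor gene NCOR1 was 0.28 higher in MB than in OM on the log2 scale by its brightest probe.

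The 16 other LXR target genes split evenly, with 3 of 10 countable genes higher and 3 lower in MB than in OM, and a median of 0.51. LPL, the lipase that frees fatty acids from lipoproteins, gave 3082 a.u. in OM, 395 in MB and 3151 in NM. SREBF1, which encodes SREBP-1, the main activator of fatty acid synthesis, was at -1.09 for MB over OM on the log2 scale, whereas FASN and SCD, enzymes of that synthesis, were at 0.69 and 0.72. APOD, a lipocalin carrier, gave 1405 a.u. in OM, 7264 in MB and 2966 in NM. SMPDL3A, an LXR-induced phosphodiesterase, was at 1.19. Of the 16 genes 6 were at background on all arrays.

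Of the oxysterol enzymes, which make or remove the ligands of LXR, 2 of 6 could be counted. CYP27A1, a mitochondrial sterol hydroxylase, gave 5380 a.u. in OM, 3620 in MB and 9681 in NM. CYP7B1, which clears oxysterols, gave 107, 229 and 80.2. CH25H, which makes 25-hydroxycholesterol, was at background on each array. The list's median log2 ratio was 0.29 against OM and -0.11 against NM.

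Genes of HDL formation and cholesterol movement were mostly within 2-fold. Of 8 countable genes STARD4, a sterol carrier, was higher (1276, 2595 and 838 a.u. in OM, MB and NM) and NPC2, the lysosomal cholesterol carrier, was lower. NPC2 gave 122392 a.u. in OM, 47617 in MB and 44218 in NM, so NM stayed at the level of the bodies. SCARB1, the HDL receptor, was at 0.47 for MB over OM, and the median of the list was 0.33. APOA1, the acceptor for ABCA1, was at background on all 3 arrays.

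In cholesterol ester storage, NCEH1, which hydrolyses the stored ester, gave 4811 a.u. in OM, 1836 in MB and 6144 in NM and was the single gene of 4 past 2-fold. SOAT1, which makes the ester, gave 2124, 1964 and 2177 a.u. by its brighter probe and 906, 1027 and 710 by the other, and PLIN2, which coats lipid droplets, was 0.87 higher in MB than in OM. VLDLR, a receptor that MYLIP marks for degradation, passed 2-fold, at 657 a.u. in OM, 190 in MB and 1414 in NM. LRP8, another such receptor, gave 7194, 7674 and 7246 a.u. by its brighter probe and 1418, 1991 and 1086 by the other. With OM as the reference, the storage list had a median of 0.38.

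ABCA1's relatives, which carry lipids and other cargo across membranes, were read the same way. Of the 15 other ABCA and ABCG genes 6 could be counted, with a median of 0.07 for MB over OM. The countable ABCA genes lay between -0.01 (ABCA3) and 0.47 (ABCA7). ABCG2, a drug efflux pump, gave 750 a.u. in OM, 274 in MB and 963 in NM, and ABCG4 gave 112, 50.0 and 166, so both had the order NM, OM, MB of ABCA1 probe 1. ABCA13 was above background only in MB, at 96.8 a.u.

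**Figure D3:**
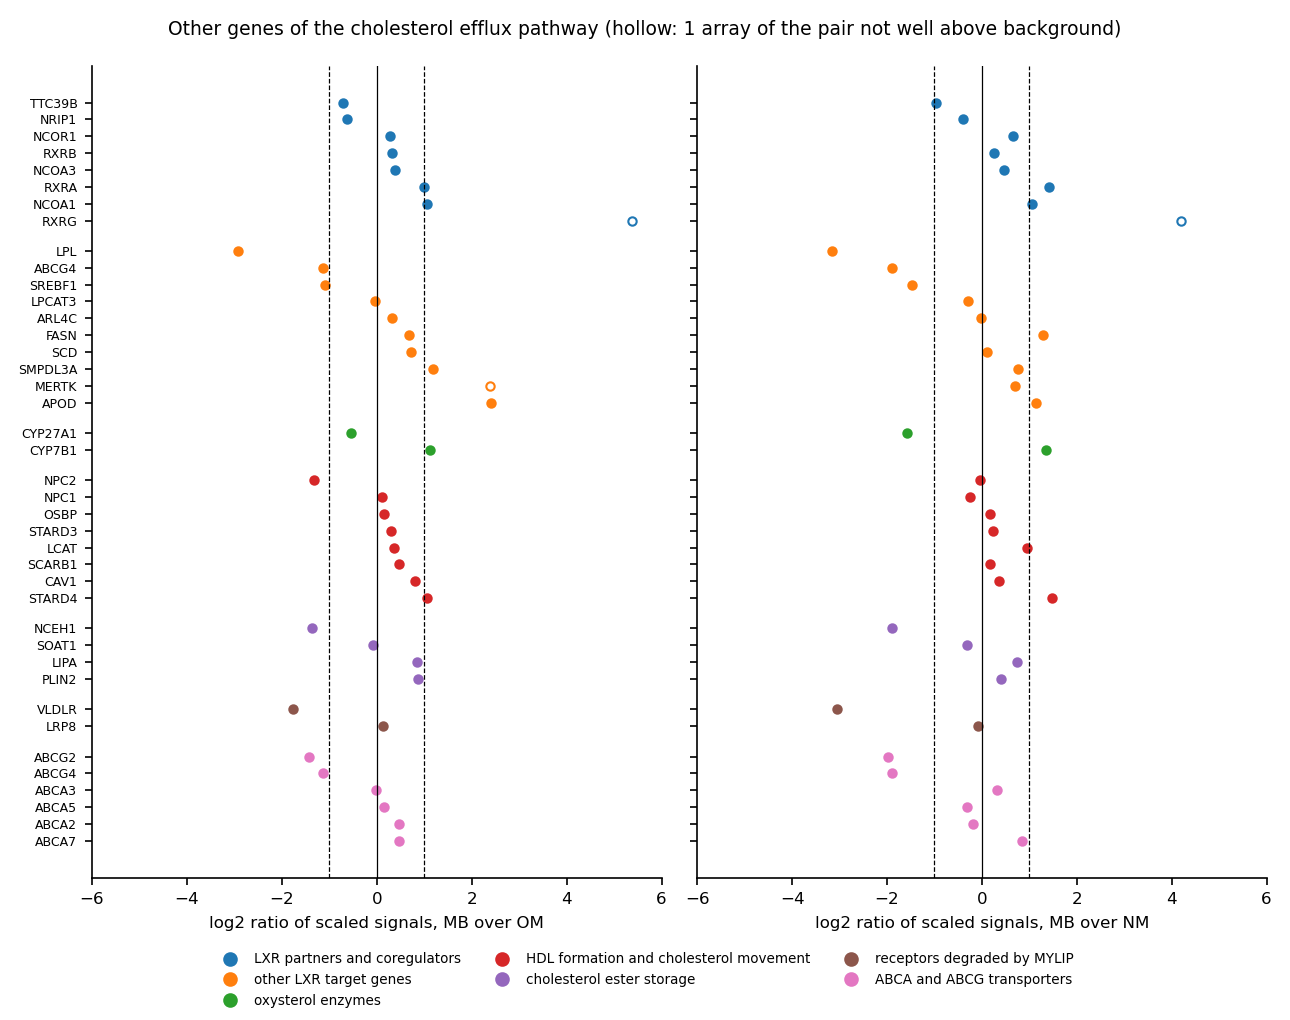
log2 ratio of scaled signals for MB over OM (left) and MB over NM (right) of listed pathway genes above 100 a.u., 1 point per gene and coloured by list; ABCG4 stands in 2 lists. Hollow points have 1 array of the pair not well above background, and dashed lines mark 2-fold. Points fall on both sides of 0, on the left from LPL at -2.93 to RXRG at 5.37, a value that rests on a background-level OM signal.

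The 5 genes closest to ABCA1 over the 3 arrays, by Euclidean distance of log2 scaled signals centred on each gene and with dim signals raised to the array's floor, among 11725 genes compared, were ANKFN1 (1.66), CXCL8 (1.74), CYRIA (1.79), STC2 (1.91) and CXCL14 (1.91). CXCL8, a neutrophil chemokine, gave 1657 a.u. in OM, 109 in MB and 8082 in NM. STC2, a secreted glycoprotein, gave 4643, 351 and 7424, and CXCL14, another chemokine, 5457, 275 and 4244. CXCL14 was highest in OM and the other 4 in NM. All 5 were lowest in MB, which follows from picking genes close to ABCA1. The genes compared had a probe designed to a RefSeq transcript and a signal above 100 a.u. on any array.

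Markers of the line and of other cells were read beside these values. Of 10 melanocyte and melanoma markers 8 were well above background in OM, 8 in MB and 7 in NM, with SOX10 at 6254, 9382 and 4887 a.u. in OM, MB and NM, while the pigment enzyme genes TYR and TYRP1 were at background on all arrays. Of 8 macrophage markers, cells in which ABCA1 is well studied, 6, 4 and 4 were well above background, and PTPRC and CD163 were at background on each. Their summed signal, after scaling unlike the single values here, was 50089 a.u. in OM, 2115 in MB and 6165 in NM. The OM sum came mainly from 1 MSR1 probe at 45009 a.u., whose gene has 2 other probes at background on all arrays. CD68, a lysosomal protein gene, moved with ABCA1, at 4716, 1727 and 4944 a.u. in OM, MB and NM, and MARCO was above background only in OM (107 a.u.). ITGAM went another way, at 135, 194 and 304 a.u., CSF1R gave 33.7, 42.9 and 42.6, and CD14 gave 70.3, 60.2 and 58.7. Their part in the result was not tested. Of the 3 endothelial markers VWF gave 185, 390 and 95.6 a.u. (its other probe was at background). PECAM1 was above background only in MB (87.7 a.u.) and CDH5 on no array, with scaled sums of 202, 498 and 132 a.u. Of the 2 keratinocyte markers KRT14 gave 213, 373 and 118 a.u. and KRT5 was at background on each, with scaled sums of 218, 386 and 141. These lists were highest in MB, where ABCA1 was at background, and their part was not tested either. The hepatocyte genes APOA2 and APOB were at background on each array. ALB was above it only in OM (69.3 a.u.) and by 1 probe, with its other probes at background on all arrays. In such bulk samples, fewer cells of a type and less RNA per cell cannot be told apart.

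The MB and NM values were set against OM with scaling factors of 0.978 for MB and 0.877 for NM. Over detected probes the median log2 ratio was then 0.10 (MB over OM), 0.09 (MB over NM) and 0.03 (NM over OM). With spike-in scaling the same medians were -0.18, -0.05 and -0.12. The direction of ABCA1, ABCG1, PLTP and MYLIP in MB was the same against either monolayer under each of the 6 other scalings.

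**Figure D4:**
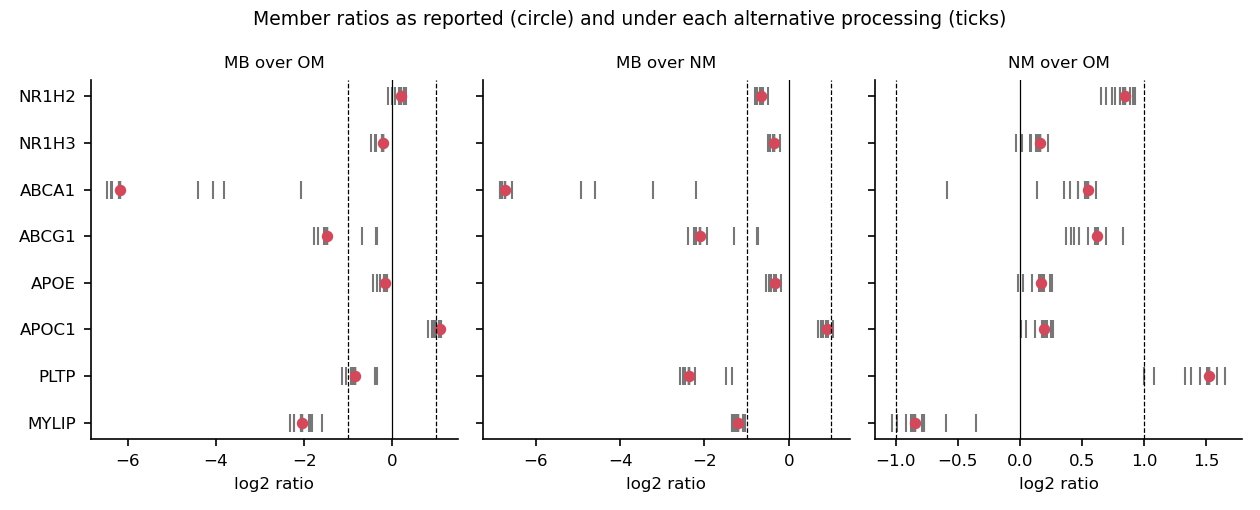
log2 ratio of each member's gene-level value in the 3 comparisons, as reported (red circle) and under each of 16 alternative ways of processing (grey ticks); dashed lines mark 2-fold. ABCA1 is plotted below -2 in MB over both monolayers but runs from -6.46 to -2.07 against OM, while APOE and NR1H3 stay within 2-fold in each comparison. Each ABCA1 value for MB rests on a background-level signal, so these are not measured folds.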

How the data were processed

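RNA of each population was amplified, labelled with Cy3 and hybridised to an Agilent 4 × 44K human array. The deposited scanner tables were written by Agilent Feature Extraction 9.5, per the labels and file headers. The values used were the processed signal intensity deposited by the authors, background-subtracted by that software and not scaled between arrays; probe positions are hg17. The deposited value table held the same numbers (130128 of 130128 values within 0.1%).

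Control and outlier spots were left out, and spots of a probe were averaged. As in the study's methods, arrays were scaled on 3 housekeeping genes, here the arithmetic mean of GAPDH, ACTB and HSP90AA1. A gene was its brightest probe. It was called at 5-fold (the study's rule) or 2-fold, provided that the larger of both signals exceeded 100 a.u. A signal not well above background gave a bound, against the higher of itself and the lowest signal well above background on that array (20.9, 19.4 and 29.1 a.u. in OM, MB and NM). For ABCA1 probe 1 in MB the higher was the signal itself, and the bound leaves out the error of that spot. The technical error was the spread of log2 ratios between replicate spots. No test was made, since each population had 1 array. The calls were checked on data simulated from OM signals above 200 a.u. with known scaling factors. That check does not bear on signals near background, such as ABCA1 in MB, or on the choice of scaling. Named genes were the members, the listed genes past 2-fold in MB against both monolayers with up to 3 more per list, the markers, and the 5 genes nearest to ABCA1. Members and lists were chosen with earlier results of these data known.

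Gene symbols and promoters came from RefSeq tables (GRCh38.p14). Software was Python 3.11.15, pandas 2.3.3 and, for normexp, limma 3.58.1 in R 4.3.3. Alternatives covered scaling, background correction, outliers, dim signals, the signal minimum and the choice of probe. Single values of some listed genes are not reported here.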

Additional observations from a re-analysis of the deposited data

How the results depend on the processing

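No paired analysis was possible because each population has a single array, and for the same reason none could be left out. Of 128 recomputed values for ABCA1 in MB and for the counts of members, 104 moved by less than the spread between replicate spots, or by no more than 1.5 times for a count. Some of these could not move. The signal minimum and the rule on both arrays alter only which genes are counted, and the deposited value table held the same numbers. For counts, a fall from 3 members to 2 was within the limit. The 104 is therefore no measure of stability. No called member ratio changed sign under the alternatives run.

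ABCA1 in MB over OM, -6.17 on the log2 scale, was -6.36 with 75th-percentile scaling, -6.37 with quantile normalization, -6.46 with spike-in scaling, -4.06 with normexp, -4.39 with no background subtraction, -3.81 as the mean of its probes and -2.07 by its dimmest detected probe. Against NM, -6.72 became -6.56 unscaled, -4.59 with normexp, -4.92 with no background subtraction, -3.23 as the mean of its probes and -2.20 by its dimmest detected probe. Normexp and the unsubtracted signal keep a background level in the MB value by construction.

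Of members 5-fold different between MB and OM, 1 became 2 with spike-in scaling (MYLIP joined) and 0 with both arrays required well above background or with the dimmest detected probe. Between MB and NM, 2 became 1 with no scaling, normexp, no background subtraction, a minimum of 200 a.u., both arrays required well above background or the dimmest detected probe. Between NM and OM, the 1 member past 2-fold became 2 unscaled and 0 with normexp or a minimum of 200 a.u.

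Each count over all genes was highest with no minimum signal, and lowest with normexp unless another setting is named. For MB over OM, 1205 genes 2-fold higher ranged from 700 (spike-in scaling) to 2290, 755 lower from 544 to 1618, 186 genes 5-fold higher from 64 to 337 and 123 lower from 37 to 295. For MB over NM the 2439 higher ranged from 1743 to 3758, 1843 lower from 1391 (unscaled) to 2744, 512 at 5-fold from 123 to 792 and 297 lower from 138 to 480. For NM over OM, 766 higher ranged from 510 (unscaled) to 1581, 1049 lower from 574 to 2273, 134 at 5-fold from 39 to 284 and 177 lower from 12 to 388. In the pathway lists, the 7 genes higher in MB than OM ranged from 3 with spike-in scaling to 9, and the 3 higher in NM than OM from 2 with 75th-percentile scaling to 7, both highest with no minimum signal. The cause of these moves was not tested. Signals near the array floor limit ABCA1 probes 2 and 3, ABCG1 and PLTP.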
